A study of Arabidopsis thaliana with 8 samples.

Results

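The comparison set *fip37L*, a mutant that lacks the m6A writer after embryogenesis, directly against *cpsf30-3*, a mutant that lacks the m6A-binding form of a polyadenylation factor. Its members were the libraries labelled *fip37L* (2 replicates) and *cpsf30-3* (2 replicates), 4 of the 8 libraries of the series. All were polyadenylated RNA of 9-day-old *Arabidopsis thaliana* Col-0 seedlings, read as counts in the 500-bp window that starts at the annotated 3′ end of each gene. *fip37L* is the *fip37-4* mutant rescued by *LEC1:FIP37*, so FIP37 is supplied from a promoter that is active in the embryo. *cpsf30-3* is a single T-DNA insertion line (GABI) that lacks the long *CPSF30* mRNA and keeps the short one. WT seedlings (2 libraries) are given beside them as background, and *cpsf30-1* (2 libraries), which lacks both *CPSF30* forms, entered only the estimate of the spread. The study grew *fip37-4* plants on a fuller-strength medium with sucrose and collected them under a microscope, whereas its general medium was weaker with no sucrose stated. Which of these held the WT and *cpsf30* seedlings sequenced here is not stated. If it was the general one, culture and genotype cannot be told apart. No source says that the replicates were separate cultures, so the p-values measure the spread between these libraries, which may be technical.

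N6-methyladenosine (m6A) is placed on mRNA by a nuclear writer complex whose scaffold subunit in plants is FIP37, the counterpart of human WTAP. Reader proteins with a YTH domain bind the mark. In plants one such domain sits on the long form of CPSF30, a subunit of the complex that recognises the poly(A) signal and cuts the nascent RNA. When cutting fails, transcription continues past the 3′ end (readthrough) and may run into the next gene to give a chimeric mRNA. The study asked whether writer and reader act on the same genes, and the contrast measured here asks at which genes the downstream reads of these mutants differ.

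Over 1 window per gene, the *fip37L* libraries held 6039296 and 4385181 reads, those of *cpsf30-3* 5198696 and 4349654, and those of WT 5173604 and 4777989. Replicates of *fip37L* differed the most, with a biological coefficient of variation of 21.5%, against 12.4% for *cpsf30-3* and 6.36% for WT. A count of 3 reads, taken as the least a library can show, equalled 0.530 and 0.722 CPM (counts per 1000000 scaled reads) in *fip37L*, and 0.584 and 0.697 CPM in *cpsf30-3*. These floors and the intervals of counts below cover counting error only. The study describes its downstream read density in *nerd-1* as strand-specific and does not give the strand setting for these counts, which did not all behave as strand-specific. Among 15 pairs of windows that cover nearly the same bases on opposite strands, 9 held the same reads within 10%, such as 107 and 107 for AT3G13240 and AT3G13250. A window that faces a gene on the other strand can therefore hold that gene's own reads, and the windows facing such genes are described by the gene they face. Reads of gene bodies were not used here. A window can thus also change with the level of its own gene or of a same-strand neighbour, which was not separated from readthrough. For *nerd-1*, the study left out genes whose own expression changed.

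The mutated genes were looked at first. The window of the second *CPSF30* model (AT1G30460.2, chr1:10770686-10771185, minus strand, TAIR10.1), which lies largely inside the longer first model, held 16 and 17 reads in *fip37L* and 4 and 2 in *cpsf30-3*, against 19 and 14 in WT. The groups *fip37L* and *cpsf30-3* did not overlap, with *cpsf30-3* the lower, at a log2 change (*fip37L* minus *cpsf30-3* throughout) of 2.38 ± 0.52 (SE, edgeR adjusted p = 0.0191 in the fit of all transcript models). The window of the first *CPSF30* model held at most 3 reads in any of these libraries and was not tested. The *FIP37* window (AT3G54170, chr3:20059584-20060083, plus strand) held 149 and 105 reads in *fip37L* and 41 and 36 in *cpsf30-3*, with 56 and 37 in WT. It averaged 25.8 ± 0.745 CPM in *fip37L* and 8.17 ± 0.279 CPM in *cpsf30-3* (SD, n = 2 each), a log2 change of 1.66 ± 0.21 (edgeR adjusted p = 0.00181). Of its 500 bases, 413 lie in the next gene on the same strand, *CDKB1;1*, a cyclin-dependent kinase of mitosis, so the value is not a measure of *FIP37* mRNA.

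Of 12583 windows tested with edgeR, 521 were higher in *fip37L* than in *cpsf30-3* (4.14% of those tested) and 326 were lower (2.59%), 847 in all (6.73%). A call required at least a 2-fold difference with the adjusted p below 0.05. Every higher window and 325 of the 326 lower ones had libraries that did not overlap between the mutants, beside 28.7% of all tested windows with both *fip37L* libraries above and 27.8% with both below. The calls came from the same libraries, so this largely follows from the call rule and is no separate support. Windows with higher reads in *fip37L* had a median of 10.04 CPM in *fip37L*, 3.44 CPM in *cpsf30-3* and 3.85 CPM in WT. Windows with lower reads in *fip37L* had a median of 3.14 CPM in *fip37L*, 9.67 CPM in *cpsf30-3* and 8.08 CPM in WT. In both directions the WT median lay nearer to that of *cpsf30-3*. In the same fit, 894 windows were higher in *fip37L* than in WT (7.1%) and 167 in *cpsf30-3* than in WT (1.33%). The change was at least 4-fold in 150 of the higher and 93 of the lower windows, and at least 8-fold in 47 and 26. Over all tested windows the median log2 change was 0.01. Called windows were spread over the 5 chromosomes, with between 3.63% and 4.51% of tested windows higher and between 2.12% and 3.41% lower. The counts rested on both *cpsf30-3* libraries: without replicate 1 they were 210 higher and 152 lower, and without replicate 2 they were 238 and 213. DESeq2 called 251 higher and 178 lower and gave an adjusted p for 429 and 293 of the windows that edgeR called, and a fit of these 4 libraries alone called 178 and 118.

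**Figure D1:**
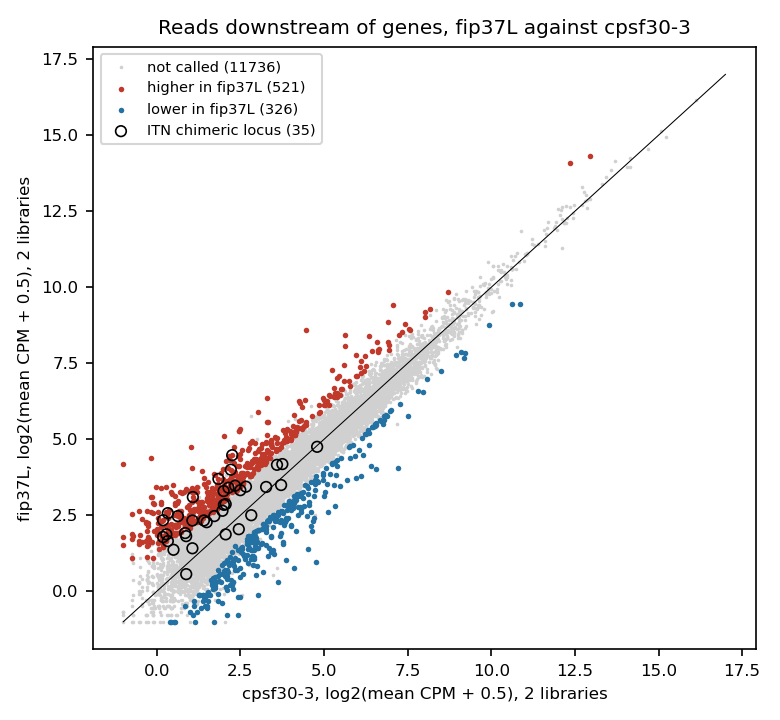
Each point is 1 tested window, at log2(mean CPM + 0.5) of the 2 *fip37L* libraries (y axis) against the 2 *cpsf30-3* libraries (x axis), with called windows in red (521 higher) and blue (326 lower) and the 35 tested ITN chimeric loci circled. Most circles lie above the line of equal levels, at low to middle read levels.

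The balance between higher and lower windows differed with what lay in the window. In windows that reach into another gene on the same strand, readthrough would join a neighbour, but the neighbour's own mRNA is counted too. Among these windows, 187 were higher and 72 lower of 4015 tested (4.66% and 1.79%). Of those called, 72.2% were higher in *fip37L*. Among windows free of any other annotated gene, 77 were higher and 80 lower of 1633 (4.72% and 4.90%), so 49.0% of those called were higher. Where only genes of the opposite strand lay in the window, 252 were higher and 171 lower of 6830 (3.69% and 2.50%), or 59.6%. The share of higher windows was thus largest with a same-strand neighbour. It was smallest in free windows, except in the fit of the 4 libraries alone, where it was 59.5% in free windows and 54.0% with opposite-strand genes only. These shares are descriptions with no test between classes. The share in free windows ran from 38.9% to 58.2% when *cpsf30-3* replicate 2 or *fip37L* replicate 2 was left out.

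**Figure D2:**
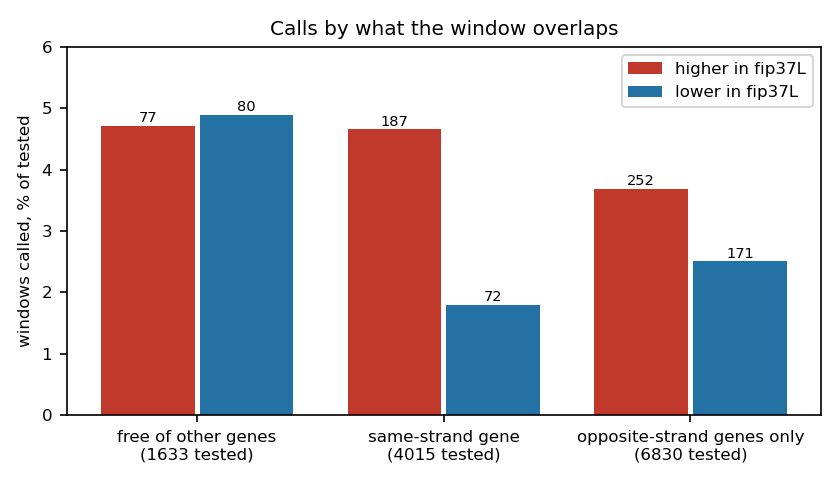
Bars give the percentage of tested windows called higher (red, left) or lower (blue, right) in *fip37L* than in *cpsf30-3*, with the number called above each bar. Windows with a same-strand gene hold 187 higher against 72 lower calls, and windows free of other genes hold 77 against 80.

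For 80 same-strand neighbours of the higher windows, the neighbour's own downstream window was tested and did not share bases with the called one. Of these, 8 were also higher in *fip37L* and 3 lower (10% and 3.75%), beside 4.35% and 2.39% over the 2091 such neighbours of all tested windows. For the lower windows, 1 of 40 neighbours was higher and 4 were lower (2.5% and 10%). Windows of gene models that end at the stop codon, and so hold the gene's own 3′ UTR, were 9.88% of the higher and 10.7% of the lower windows with a coding model, beside 8.73% of all those tested.

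The loci with readthrough known from another mutant moved mostly one way. The study had found them in *nerd-1* plants, in other libraries, and named them ITN loci, with chimeric loci where the transcript runs into a neighbouring gene. It then examined them in *fip37L* and in the *cpsf30* mutants as well. By 3′ RACE, an assay of mRNA ends, it reported similar changes in poly(A) sites in *fip37L* and *cpsf30-3* at ITN loci. It also reported a significant overlap of the loci with more downstream reads than WT in these mutants. Of 37 ITN chimeric loci, 35 had a tested window. Of these, 11 were higher in *fip37L* than in *cpsf30-3* and 0 were lower (31.4% higher, beside the 4.14% of all tested windows). At an unadjusted p under 0.05 by edgeR, 21 were higher and 0 lower. Over all tested windows, 3993 of 12583 had an unadjusted p under 0.05 in either direction, a background for this and the later lists. The median log2 change over the 35 was 1.07, and 29 values were positive and 6 negative. DESeq2 called 8 of them higher and 0 lower, and the count was 8 without *cpsf30-3* replicate 1 and 8 without replicate 2. A fit of the 4 libraries alone called 7. The lowest value, -0.43 at *EDE1*, was not called.

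The study followed 6 of the loci in detail, and they split into 3 that were called higher here and 3 that were not. For reference, the last 30 genomic bases before the annotated 3′ end are given 5′ to 3′ on the gene's strand from RefSeq's TAIR10.1 sequence, with the motif AATAAA, the canonical poly(A) signal, in capitals. They lie at chr1:1784646-1784675 (*ARI5*), chr2:9173384-9173413 (AT2G21440), chr5:2414682-2414711 (AT5G07630), chr1:26885170-26885199 (*GDPD4*), chr3:17666927-17666956 (AT3G47890), chr4:14932105-14932134 (*ATS2*) and chr3:1693349-1693378 (AT3G05725, a window that was lower in *fip37L*, shown because its end holds the motif).
ARI5: ttgactccttcaaaatttccaagaagttag
AT2G21440: gtcaaattatcattggttccaaaccgtccg
AT5G07630: gtactactcttcattatttttgtttttggt
GDPD4: gatgactgatattaagtctgtttatataat
AT3G47890: agatgtcatatagttaaagtaatcttggcc
ATS2: tgaatcagagattcctgtgttctcagtgaa
AT3G05725: tgttttttgtaattAATAAAcactacaatt
None of the 35 tested ITN chimeric ends held AATAAA on the gene's strand in these 30 bases, as against 793 of 12478 nuclear ends tested (6.36%), 5.62% of the higher and 7.74% of the lower windows. The absence was not particular to them: it was also 0 of 14 at ITN extended ends and 0 of 17 at the FPA loci described below. The letters TGTA occurred on that strand in the last 100 bases at 15 of the 35 (42.9%), against 54.8% of all those tested. No test was made of these shares, and plant poly(A) signals often depart from AATAAA.

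Among the 3 called loci, the window of AT5G07630, annotated as a lipid transporter, held 113 and 98 reads in *fip37L* and 20 and 20 in *cpsf30-3*, against 15 and 17 in WT. The *cpsf30-3* libraries sat near WT and far below both *fip37L* libraries, at a log2 change of 2.35 ± 0.22 (SE, edgeR adjusted p = 0.000759). *ARI5* (AT1G05890), a RING/U-box protein, held 80 and 45 reads in *fip37L* and 15 and 14 in *cpsf30-3*, with 7 and 7 in WT, at a log2 change of 2.02 ± 0.26 (adjusted p = 0.00196). AT2G21440, an RNA-binding protein, held 87 and 65 reads in *fip37L* and 27 and 13 in *cpsf30-3*, against 10 and 9 in WT, at 1.88 ± 0.26 (adjusted p = 0.00253). At both loci *cpsf30-3* lay between WT and *fip37L* in read number. The window of the second *ARI5* model (chr1:1784428-1784927), which starts before the end of the first, held 96 and 46 reads in *fip37L* and 62 and 48 in *cpsf30-3*, with 45 and 45 in WT, and its log2 change of 0.29 ± 0.23 was not called. The call at *ARI5* thus depended on the model.

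At the other 3 loci the log2 change between the mutants was smaller. *GDPD4* (AT1G71340), of the phosphodiesterase superfamily, held 100 and 71 reads in *fip37L* and 58 and 51 in *cpsf30-3*, against 19 and 27 in WT. Its log2 change of 0.59 had a 95% interval of 0.14 to 1.04 (edgeR adjusted p = 0.0756). *ATS2* (AT4G30580), an acyltransferase of chloroplast lipid synthesis, held 56 and 45 reads in *fip37L* and 29 and 26 in *cpsf30-3*, with 19 and 25 in WT, at a log2 change of 0.82 (interval 0.31 to 1.33, adjusted p = 0.0381), below the 2-fold limit. At *ATS2* the *cpsf30-3* mean of 5.84 CPM lay nearer to WT (4.34 CPM) than to *fip37L* (10.36 CPM). AT3G47890 held 49 and 12 reads in *fip37L* and 23 and 10 in *cpsf30-3*, against 3 and 5 in WT. Its groups overlapped in reads, the log2 change was 0.79 with an interval of -0.30 to 1.88 (adjusted p = 0.300), and without *fip37L* replicate 2 it was called at 1.31 (adjusted p = 0.0328). None of these intervals excluded a 2-fold difference. The control loci *PAB4* (0 and 0 reads in *fip37L*, 2 and 2 in *cpsf30-3*) and *PHYB* (3 and 1 in *fip37L*, 4 and 5 in *cpsf30-3*) held too few reads to test.

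**Figure D3:**
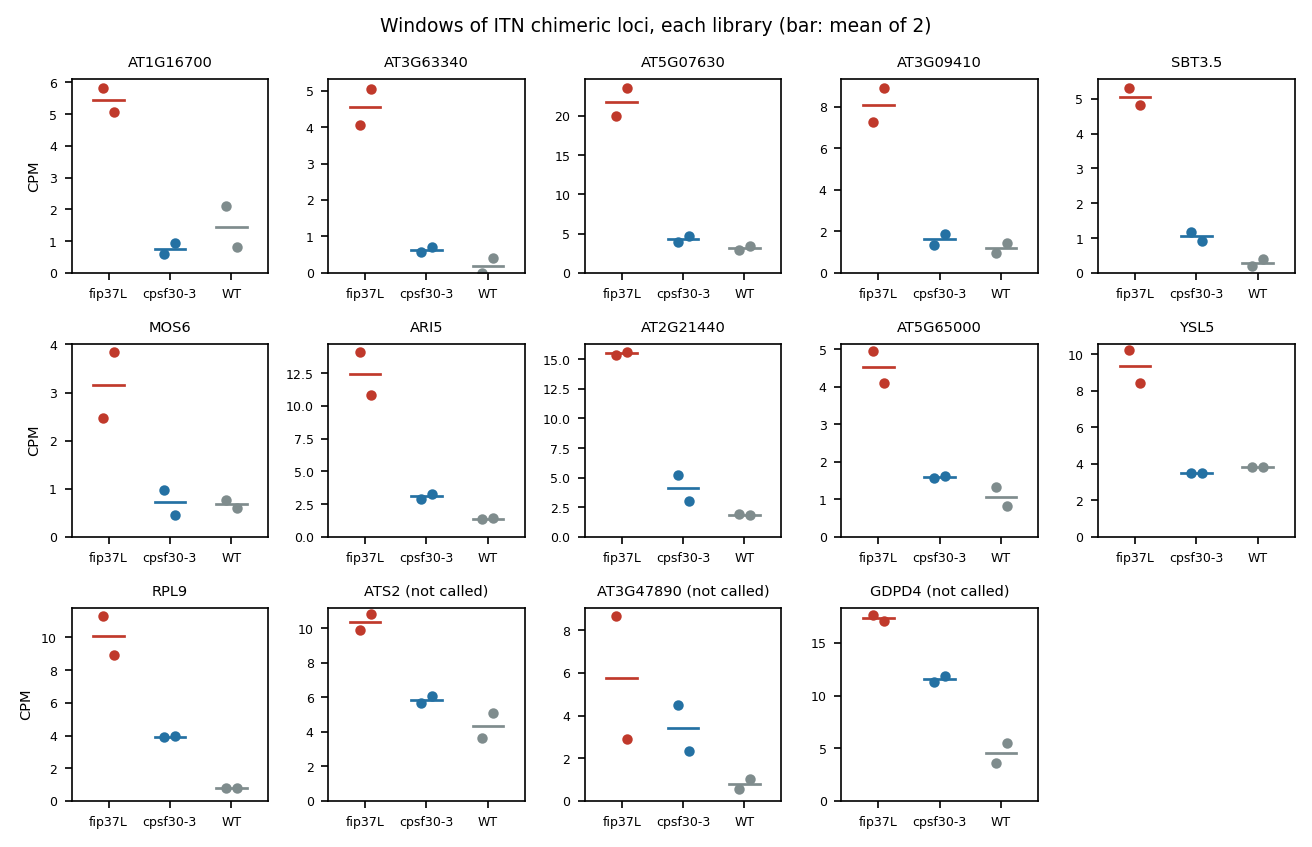
CPM of each library (points) and the mean of 2 (bars) in *fip37L*, *cpsf30-3* and WT, for the 11 called ITN chimeric loci in order of log2 change and the 3 followed-up loci that were not called. Every called panel has both *fip37L* points above both *cpsf30-3* points, while *cpsf30-3* ranges from the WT level (AT5G07630, *YSL5*) to well above it (*RPL9*).

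The largest changes of the list were at AT1G16700, a ferredoxin-family protein, with 33 and 21 reads in *fip37L* and 3 and 4 in *cpsf30-3*, against 11 and 4 in WT (log2 change 2.84 ± 0.47, edgeR adjusted p = 0.00530), and at AT3G63340, a kinase-family protein, with 23 and 21 reads in *fip37L* and 3 and 3 in *cpsf30-3* (2.78 ± 0.53, adjusted p = 0.00965). Reads at AT1G16700 were no higher in *cpsf30-3* than in WT. AT3G09410, a pectin acetylesterase whose window lies in its neighbour and family member AT3G09405, held 41 and 37 reads in *fip37L* and 7 and 8 in *cpsf30-3*, at a log2 change of 2.31. The subtilase gene *SBT3.5* showed the like, with 30 and 20 reads in *fip37L* and 6 and 4 in *cpsf30-3* (log2 change 2.24) over the adjoining subtilase AT1G32950. Reads in such tandem pairs may be shared between copies. The remaining called loci were *MOS6* (an importin alpha, log2 change 2.03), AT5G65000 (a nucleotide-sugar transporter, 1.504), *YSL5* (a metal-chelate transporter of the YELLOW STRIPE family, 1.42) and *RPL9* (1.37). *RPL9*, which encodes a ribosomal protein, held 64 and 37 reads in *fip37L* and 20 and 17 in *cpsf30-3*, with 4 and 4 in WT. Both mutants stood above WT there, and its window lies wholly in *CHX4*, a cation exchanger. Calls at ARI5, AT2G21440, AT5G07630, AT3G09410 and *SBT3.5* were kept in all 9 alternative fits. Without *cpsf30-3* replicate 1, the calls at AT1G16700 (adjusted p = 0.0561), AT3G63340 (0.0861), *RPL9* (0.0515), *MOS6* (0.0876) and AT5G65000 (0.132) were lost. Without replicate 2, AT3G63340 (0.0618), *MOS6* (0.151) and AT5G65000 (0.102) were lost. AT5G65000 was also lost without *fip37L* replicate 1 (0.0830) and *MOS6* without *fip37L* replicate 2 (0.120).

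ITN extended loci, whose transcripts lengthen without reaching a new gene, gave 3 higher and 0 lower windows of 14 tested of 17 listed (21.4% higher, beside 4.14% of all tested windows), with a median log2 change of 0.26. At an unadjusted p under 0.05, 5 were higher and 1 lower by edgeR, and DESeq2 called 1 and 0. *UBP13*, a ubiquitin-specific protease, held 61 and 34 reads in *fip37L* and 9 and 7 in *cpsf30-3*, against 5 and 5 in WT, at 2.48 ± 0.34 (edgeR adjusted p = 0.00245). *EMB2820*, a deaminase-family gene needed in the embryo, had 47 and 26 reads in *fip37L* and 17 and 8 in *cpsf30-3* (1.47, adjusted p = 0.0182). *RAP74*, a subunit of the general transcription factor TFIIF, had 29 and 24 reads in *fip37L* and 9 and 13 in *cpsf30-3* (1.2001, adjusted p = 0.0375). The last call was lost when any 1 of the 4 libraries was left out (adjusted p from 0.0560 to 0.229), and *EMB2820* was lost without *fip37L* replicate 1 (0.0638) or *cpsf30-3* replicate 2 (0.112). *UBP13* was kept in every alternative fit, although 198 bases of its window lie in *ANT1*, an amino acid transporter on the opposite strand.

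FPA is an RNA-binding protein that promotes use of proximal poly(A) sites. The study describes the roles of FPA and NERD as largely independent, with a limited overlap of their loci. Of 28 FPA-dependent loci, 17 were tested, and 0 were higher and 0 lower, with a median log2 change of -0.04 (8 positive, 9 negative). Over all tested windows 4.14% were higher and 2.59% lower, and at those shares a list this short would hold few calls or none. The values ran from -0.95 to 1.15. At an unadjusted p under 0.05, edgeR gave 4 higher and 0 lower, and DESeq2 called 0 and 0. Of the 4, AT5G42070 had an adjusted p of 0.00293 by edgeR below the 2-fold limit. It held 361 and 332 reads in *fip37L* and 194 and 153 in *cpsf30-3*, with 202 and 194 in WT, with a log2 change of 0.96 (interval 0.66 to 1.27). Both *fip37L* libraries were above all the others, and *cpsf30-3* did not stand above WT. Leaving out *fip37L* replicate 1 gave 1 higher and 1 lower call in the list, and leaving out *cpsf30-3* replicate 1 gave 1 higher.

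**Figure D4:**
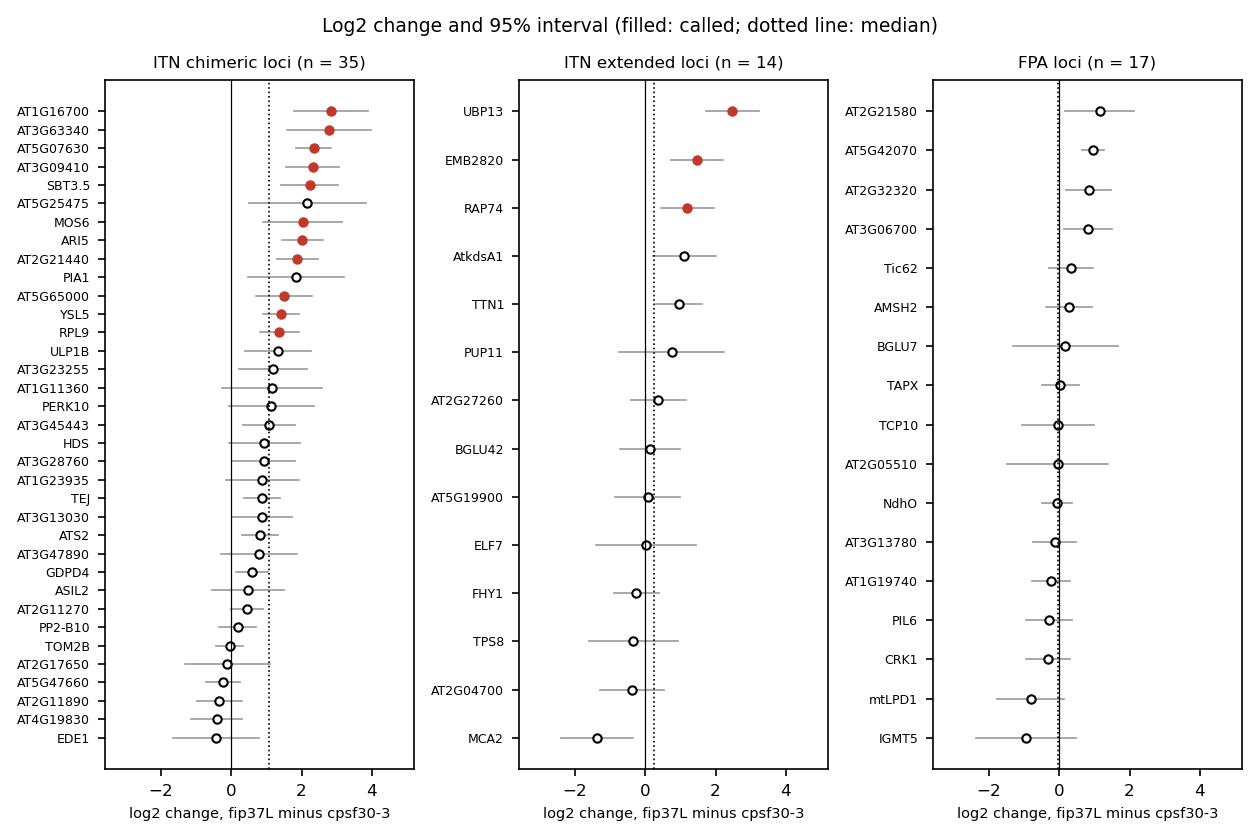
Log2 change (*fip37L* minus *cpsf30-3*) with its 95% interval for every tested window of the ITN chimeric (35), ITN extended (14) and FPA (17) lists, with called windows filled. The dotted medians stand at 1.07, 0.26 and -0.04.

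Writer, eraser and reader genes of the m6A pathway gave 2 higher and 0 lower windows of 11 tested of 19, with a median of 0.22. That is 18.2% higher, beside 4.14% of all tested windows. The calls include *FIP37* itself, the mutated gene, whose window lies mostly in the next gene, so the share is not a measure of the pathway's mRNAs. DESeq2 also called 2 and 0, and at an unadjusted p under 0.05 edgeR gave 5 and 1. Besides *FIP37*, the window of *ECT7*, a YTH-domain reader of the ECT family, held 514 and 304 reads in *fip37L* and 120 and 167 in *cpsf30-3*, against 221 and 208 in WT. Here *cpsf30-3* was below WT and *fip37L* above, at a log2 change of 1.41 ± 0.21 (edgeR adjusted p = 0.00335). Of its bases, 400 lie in a non-coding RNA on the same strand, and it also overlaps the opposite-strand pectin lyase-like gene AT1G48100, so the source of the reads is not known. *ECT11* went the other way with 140 and 92 reads in *fip37L* and 243 and 196 in *cpsf30-3*, with 171 and 165 in WT. Its log2 change of -0.98 (adjusted p = 0.00181) fell short of 2-fold, and with library-size scaling it was past it. *MTA*, the catalytic methyltransferase, had a log2 change of 0.45 and the reader *ECT2* one of -0.36, and neither was called.

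Cleavage and polyadenylation factors gave 0 higher and 1 lower of 13 tested of 18, with a median of -0.14. The single lower window is 7.69% of the list, beside 2.59% of all tested windows. At an unadjusted p under 0.05 edgeR gave 0 higher and 2 lower, and DESeq2 called 0 and 0. The window of AT5G60940, the 50-kD subunit of cleavage stimulation factor (CSTF50), held 7 and 7 reads in *fip37L* and 20 and 15 in *cpsf30-3*, against 6 and 7 in WT. *cpsf30-3* was the high group, and *fip37L* lay at the WT level (log2 change -1.35 ± 0.35, edgeR adjusted p = 0.0286). The call was lost without *fip37L* replicate 1 (adjusted p = 0.126) and without either *cpsf30-3* library (0.140 and 0.0868). *CPSF73-I*, the endonuclease that cuts the RNA, held 93 and 56 reads in *fip37L* and 153 and 109 in *cpsf30-3*, with 74 and 64 in WT, at -0.88 (adjusted p = 0.0106), also with *cpsf30-3* the high group and below the 2-fold limit.

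The largest rises with reads in every library came from single genes of many kinds. *GOX2* (AT3G14415), a glycolate oxidase of photorespiration, held 1766 and 1945 reads in *fip37L* and 203 and 17 in *cpsf30-3*, against 424 and 130 in WT. The *cpsf30-3* libraries stood far apart from each other, and so did those of WT, at a log2 change of 4.12 ± 0.72 (edgeR adjusted p = 0.00659). The window reaches into the near-identical tandem copy *GOX1*, so reads may move between copies, and with the 4 libraries alone the adjusted p was 0.0506. *NAC044* (AT3G01600), a NAC transcription factor of the DNA damage response, held 107 and 139 reads in *fip37L* and 6 and 8 in *cpsf30-3*, with 9 and 9 in WT. The *cpsf30-3* and WT libraries lay close together there, and the change of 4.0995 ± 0.38 (adjusted p = 0.000737) was kept in every alternative. Of its window, 408 bases lie in *CDC48C*. AT1G32970 and *SBT3.5*, above, belong to one cluster of subtilase genes. AT1G32970 held 41 and 26 reads in *fip37L* and 1 and 3 in *cpsf30-3*, with 1 and 1 in WT, and its window lies inside *SBT3.3* on the opposite strand.

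Members of the DUF295 family of F-box-like proteins appeared in both directions. They were picked out among the called windows, and the share of the family that was called was not counted. AT1G30170 held 46 and 49 reads in *fip37L* and 5 and 1 in *cpsf30-3*, against 4 and 6 in WT (log2 change 3.91), and it faces AT1G30160 of the same family. AT5G53230, whose window is free of other genes, held 31 and 35 reads in *fip37L* and 2 and 2 in *cpsf30-3* (3.93). It was lost without *cpsf30-3* replicate 1 (edgeR adjusted p = 0.0689) or replicate 2 (0.0525). The family member AT4G17565 was lower, with 9 and 2 reads in *fip37L* and 37 and 43 in *cpsf30-3*, with 9 and 6 in WT (-2.91). There, *cpsf30-3* was the group away from WT, and 176 bases of the window lie in AT4G17560 on the opposite strand. The other large rises were AT5G61750 (a cupin, 4.16), AT1G20380 (a prolyl oligopeptidase, 3.76) and AT5G41765 (3.59). The windows of AT5G61750, AT5G41765 and AT1G32520 (below) face AT5G61740, AT5G06195 and AT1G32510 on the opposite strand, with 436, 281 and 408 bases in them. The models of AT5G61750, AT5G41765, AT4G17565 and AT1G34440 (below) end at the stop codon, so their windows can hold the gene's own 3′ UTR. At AT1G20380, *fip37L* held 73 and 31 reads, *cpsf30-3* 5 and 2, and WT 36 and 47, so that *cpsf30-3* was the group away from WT. AT1G34440 had 56 reads over the *fip37L* libraries and 3 over those of *cpsf30-3*, a ratio of 17.95 after scaling (95% counting interval 5.83 to 89.7). AT1G32520 had 41 against 3, a ratio of 13.1 (4.19 to 66.3), and was lost without *cpsf30-3* replicate 1 (0.134) or replicate 2 (0.0770).

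In some windows *cpsf30-3* had no read at all. *NSP3* (AT3G16390), a nitrile-specifier protein of glucosinolate breakdown, held 99 and 73 reads in *fip37L* and 0 and 0 in *cpsf30-3*, against 19 and 5 in WT. Against a floor of 3 reads per library it was at least 27.4-fold higher in *fip37L*, in a window free of other genes (edgeR adjusted p = 0.00153). WT lay between the mutants there. *NDB4*, a mitochondrial NAD(P)H dehydrogenase, held 17 and 12 reads in *fip37L* and none in *cpsf30-3* or WT, which makes it at least 4.60-fold higher. AT1G47920 was at least 3.67-fold higher. Both were lost without *cpsf30-3* replicate 1 (0.0838 and 0.127) or replicate 2 (0.0652 and 0.0991).

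Windows free of other genes overlap no other gene of the TAIR10.1 annotation on which they were placed. Among them, *NARA5* (AT4G27600), a pfkB-type kinase needed for chloroplast gene expression, held 41 and 38 reads in *fip37L* and 5 and 4 in *cpsf30-3*, with 9 and 5 in WT, a log2 change of 3.06 ± 0.40 (edgeR adjusted p = 0.00204). *MET18*, of the cytosolic iron-sulfur assembly machinery, held 41 and 26 reads in *fip37L* and 5 and 1 in *cpsf30-3*, against 3 and 3 in WT (3.37). In both genes all *fip37L* reads exceeded those of the other lines. AT5G45630, a senescence regulator-like gene, was uneven, with 404 and 35 reads in *fip37L* and 17 and 30 in *cpsf30-3*, with 0 and 0 in WT. Its change of 3.00 was 0.73 without *fip37L* replicate 1 (adjusted p = 0.301), and the call was also lost without *cpsf30-3* replicate 1 (0.229) or replicate 2 (0.128) and with the replicate block (2.55, adjusted p = 0.0731).

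The largest falls included a defence pathway gene. *CYP71A13*, a cytochrome P450 of camalexin synthesis, held 2 and 2 reads in *fip37L* and 53 and 21 in *cpsf30-3*, against 30 and 43 in WT. Its overlapping opposite-strand neighbour AT2G30766 held 7 and 1 reads in *fip37L* and 78 and 37 in *cpsf30-3*, with 77 and 78 in WT. In both windows *fip37L* was the group away from WT, at log2 changes of -4.16 ± 0.60 and -3.85 ± 0.48 (edgeR adjusted p = 0.00296 and 0.00181). The windows lie on each other's gene, so they are not independent. The *CYP71A13* model also ends at the stop codon, so its window can hold its own 3′ UTR. AT3G05725, a DUF3511 gene, held 120 and 46 reads in *fip37L* and 862 and 554 in *cpsf30-3*, with 1470 and 1455 in WT, a log2 change of -3.17 ± 0.24 (adjusted p = 0.000701). It held the most reads of the 10 largest falls, with *fip37L* lowest and WT highest.

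*LPA2*, a factor for assembly of photosystem II, held 3 and 1 reads in *fip37L* and 33 and 16 in *cpsf30-3*, against 15 and 25 in WT (-3.58), in a window free of other genes. Further falls were AT3G01250 (-3.63), AT5G51790, a bHLH gene (-3.51), *SKIP16*, an F-box protein (-3.11), and AT1G77540, an acyltransferase-family gene (-2.95). All face genes on the opposite strand: 500 bases lie in AT3G01260, 69 in AT5G07825, 461 in AT1G06100 and 500 in AT1G77530, in that order. The reads may be those of the faced genes. *FBA7*, a fructose-bisphosphate aldolase next to its paralogue *FBA5*, held 12 and 9 reads in *fip37L* and 172 and 48 in *cpsf30-3*, with 20 and 116 in WT. The WT libraries stood far apart from each other, and the call at -3.38 was lost without *fip37L* replicate 1 (adjusted p = 0.0555), *fip37L* replicate 2 (0.0510) or *cpsf30-3* replicate 1 (0.186), by edgeR.

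Among the lower windows free of other genes, AT4G22510 held 96 and 40 reads in *fip37L* and 324 and 322 in *cpsf30-3*, against 675 and 653 in WT (log2 change -2.34 ± 0.25, edgeR adjusted p = 0.00114). As at AT3G05725, WT was the highest. AT4G11320, a papain-type protease, held 6 and 10 reads in *fip37L* and 63 and 30 in *cpsf30-3*, with 59 and 45 in WT (-2.54). AT1G02620, a small GTPase-family gene, held 7 and 3 reads in *fip37L* and 30 and 22 in *cpsf30-3*, against 6 and 12 in WT (-2.41), and was lost without *cpsf30-3* replicate 1 (0.0682). AT3G05165, of the major facilitator superfamily, rested on 1 library, with 361 reads in *cpsf30-3* replicate 1 and 39 in replicate 2, against 47 and 19 in *fip37L*. Its value of -2.60 became -0.46 without that library (adjusted p = 0.493), and the call was also lost without *fip37L* replicate 2 (0.101).

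In 4 windows *fip37L* had no read where *cpsf30-3* had some. AT1G31690, a copper amine oxidase, held 6 and 19 reads in *cpsf30-3* and 35 and 25 in WT, so that it was at least 4.46-fold lower in *fip37L*, and was lost without *cpsf30-3* replicate 2 (edgeR adjusted p = 0.0652). AT1G18720 was at least 2.76-fold lower. For *HAC12* (at least 1.55-fold) and AT1G51980 (at least 1.49-fold) the reads do not show a 2-fold difference, and both calls were lost when any 1 of the 4 libraries was left out (adjusted p from 0.0638 to 0.154).

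Tissue and response genes could be read only where a window faces them. Over all tested windows 4.14% were higher and 2.59% lower, so lists of a few windows would hold few calls at that share. The green shoot list held 14 genes of the light-harvesting complex and 4 of the Rubisco small subunit. Of the 18, windows faced or reached into 9, all of the light-harvesting complex, and gave 11 windows with 0 higher and 0 lower, a median log2 change of 0.01 and a range of -0.29 to 0.19. At an unadjusted p under 0.05 edgeR gave 1 higher and 2 lower, and DESeq2 called 0 and 0. The window facing *LHCB1.3* held 436473 and 284865 reads in *fip37L* and 366791 and 302564 in *cpsf30-3*, with 353402 and 328201 in WT (0.04). The labelled seedlings thus held abundant shoot mRNA in every line. The downstream windows of *RBCS2B* and *RBCS1B* themselves, not part of this count, were higher in *fip37L* (1.35 and 1.72). Of 10 root genes, 4 were covered, with 0 higher and 1 lower (0 and 2 at an unadjusted p under 0.05, and 0 and 1 by DESeq2). The window facing *CASP1*, which organises the Casparian strip of the endodermis, held 271 and 179 reads in *fip37L* and 380 and 489 in *cpsf30-3*, against 277 and 291 in WT (-1.04, edgeR adjusted p = 0.00944). It was not past the threshold without *fip37L* replicate 2 (-0.96) or *cpsf30-3* replicate 2 (-0.70, adjusted p = 0.0521). The window of *SPY*, which reaches into the related *CASP2*, had a log2 change of -0.90 (adjusted p = 0.0304), below the 2-fold limit. The window facing *PYK10*, a root beta-glucosidase, was not called, with 22633 and 19940 reads in *fip37L* and 24247 and 19673 in *cpsf30-3* (-0.08). The window facing *EXPA7*, the other root gene covered, was not called (0.15). At the *CASP1* and *CASP2* windows *fip37L* lay near WT, with log2 changes from WT of -0.29 and 0.07, and *cpsf30-3* was the high group. In these bulk samples, a change in the number of cells of a type and a change in RNA per cell cannot be told apart.

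Of 11 seed and embryo genes, 4 were covered, with 1 higher and 0 lower by edgeR (also at an unadjusted p under 0.05) and by DESeq2. The window of *TBL30*, which faces the late-embryogenesis gene *EM6*, held 173 and 71 reads in *fip37L* and 51 and 23 in *cpsf30-3*, with 10 and 17 in WT. Both mutants lay above WT, and the change of 1.63 (edgeR adjusted p = 0.0282) was lost without *fip37L* replicate 1 (0.0882) or *cpsf30-3* replicate 1 (0.0655) or replicate 2 (0.159). The oleosin-facing windows (*OLEO1* and *OLEO2*) had at most 36 reads in these mutants and were not called, at log2 changes of -0.25 and -1.37. The window facing *EM1* was not called either, at 0.39. Over the 4 windows the median was 0.07, with 2 values positive and 2 negative.

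Response genes to sugar and nitrogen were covered at 3 of 15, none of them a nitrate gene, and all 3 were called, beside the 6.73% of all windows. DESeq2 called 2 of them. The window facing *CHS*, chalcone synthase, the first enzyme of flavonoid synthesis, held 2247 and 4073 reads in *fip37L* and 514 and 725 in *cpsf30-3*, against 752 and 802 in WT. *fip37L* stood apart from the other lines at a log2 change of 2.36 ± 0.37 (edgeR adjusted p = 0.00424), kept in every alternative. The window facing *SEN1*, a gene induced by darkness and low sugar, held 156 and 25 reads in *fip37L* and 573 and 245 in *cpsf30-3*, with 129 and 84 in WT (-2.27 ± 0.51, adjusted p = 0.0174). The window facing *DIN10*, a raffinose synthase-family gene of the same response, held 1686 and 725 reads in *fip37L* and 3758 and 1601 in *cpsf30-3*, against 794 and 737 in WT (-1.22 ± 0.31, adjusted p = 0.0280). At these genes *cpsf30-3* was above WT while *fip37L* was near WT or only partly above. *SEN1* was lost without *cpsf30-3* replicate 1 (0.129), and *DIN10* without *cpsf30-3* replicate 1 (0.202) or *fip37L* replicate 2 (0.0688). The part of sucrose, which the study names for *fip37-4* plates, was not tested in these windows.

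Of 16 rapid stress genes, 4 were covered, with 0 higher and 0 lower between the mutants by edgeR, also at an unadjusted p under 0.05, and by DESeq2. At the 6.73% called over all tested windows, a list of 4 would mostly hold no call. The window facing *WRKY40*, a transcription factor induced by wounding and elicitors, held 1123 and 242 reads in *fip37L* and 421 and 539 in *cpsf30-3*, against 18 and 29 in WT. Both mutants were far above WT and *fip37L* replicate 1 far above replicate 2, so the groups overlapped (log2 change 0.32, interval -1.05 to 1.70). The window facing *WRKY33* held 2339 and 509 reads in *fip37L* and 1097 and 1194 in *cpsf30-3*, against 96 and 117 in WT. The windows facing *WRKY53* and the mitochondrial carrier *DIC2* followed the same order of libraries in *fip37L*. Leaving out *fip37L* replicate 2 gave 1 higher call in the list, and leaving out replicate 1 gave 1 lower. The part of stress in the other windows was not tested.

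**Figure D5:**
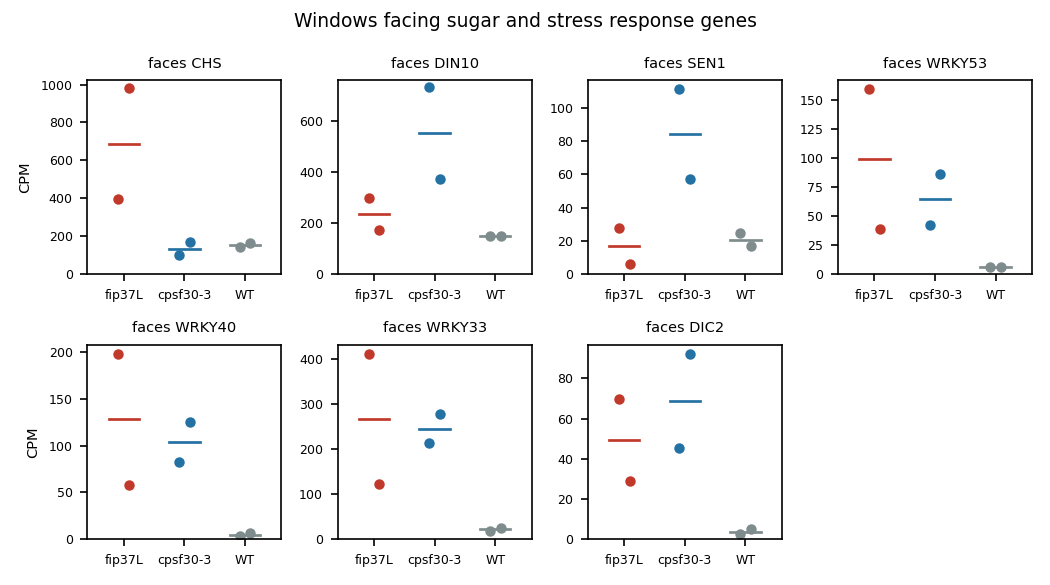
CPM of each library (points; bars are means of 2) in *fip37L*, *cpsf30-3* and WT for windows that face sugar and stress response genes on the opposite strand, each axis starting at 0. The *CHS* panel has *fip37L* alone high, the *SEN1* and *DIN10* panels have *cpsf30-3* high, and the 4 stress panels have both mutants above WT with a wide gap between the *fip37L* replicates.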

How the data were processed

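Per the labels, seedling poly(A) RNA was made into stranded libraries and sequenced with single-end reads. Per the labels and the study's methods, the authors removed chloroplast, mitochondrial and ribosomal reads with Bowtie2 2.3.4, mapped the rest to TAIR10 with TopHat2 2.0.7, and counted reads with BEDTools in 500-bp downstream windows. The deposited values are raw read counts, with no normalization. The study speaks of strand-specific read density in downstream windows of *nerd-1*, but the strand setting of these counts is not given in the sources used here.

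The lowest-numbered transcript model gave 1 window for each of 31109 genes. Windows were placed on the TAIR10.1 annotation (30616 genes), whose 3′ ends may differ from those the authors used, and gene names come from its table. Of 2133 sets of models with a shared end, 84.1% had identical counts.

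Counts were tested in R 4.3.3 with edgeR 4.0.16 (quasi-likelihood, two-sided, TMM, filterByExpr, Benjamini-Hochberg over all windows tested). All 8 libraries in 4 groups entered 1 fit, leaving 4 residual degrees of freedom, and 12583 windows passed filtering. In simulated data for this contrast (11954 windows), all 100 windows changed 4-fold were recovered (100%), 50% of those changed 2-fold, and 4 false calls were made. The simulation gave every library the same spread, whereas the real *fip37L* libraries varied more (21.5%, against 12.4% in *cpsf30-3*). Changed windows were drawn from those with a mean of at least 20 counts. These rates therefore do not cover the wider spread of *fip37L* or windows with fewer counts. CPM values use TMM-scaled totals. The 2 replicates carry the same numbers in each group, but deviations of same-numbered *fip37L* and *cpsf30-3* libraries correlated at 0.022, so the numbers were not taken as pairs. Alternatives were library-size scaling, DESeq2 1.42.0, limma 3.58.1 (voom with quality weights), glmTreat, other filters and sets of windows, other call rules, a replicate block and leaving out each library.

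Named windows were *FIP37* and *CPSF30*, 6 readthrough and 2 control loci of the study, the 10 largest changes each way (libraries that do not overlap, reads in every library of both mutants, and 20 or more counts on average where higher), the 4 most abundant with the other group at 0, the 5 largest each way free of other genes, and called list members. Members and lists were chosen with earlier results of these data known.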

Additional observations from a re-analysis of the deposited data

How the results depend on the processing

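With the replicate block, 484 windows were higher and 305 lower in *fip37L* than in *cpsf30-3*, and of the 56 named calls it ended 1 (AT5G45630). DESeq2 gave 251 and 178, voom with quality weights 342 and 137, glmTreat against a 2-fold change 31 and 19, and the 4 libraries alone 178 and 118. Windows with no same-strand gene gave 339 higher, and windows free of genes on either strand, fitted alone, 32 and 27. The adjusted p alone gave 1041 and 1022, and mean reads that differed 2-fold or more, with no test, 873 and 793. Without a filter 522 were lower, and with a mean of at least 20 counts 213. Of the calls, 84.8% of the higher and 100% of the lower were also called with library-size scaling, 57.8% and 60.1% of those with an adjusted p by DESeq2, and 33.8% and 35.9% with the 4 libraries alone. Leaving out 1 library gave 210 to 670 higher and 152 to 483 lower.

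The share of calls that were higher was 64.6% with library-size scaling in windows with a same-strand gene and 52.6% in windows with opposite-strand genes only. With the 4 libraries alone it was 59.5% in free windows and 54.0% in windows with opposite-strand genes only, where it was 54.6% at a mean of at least 20 counts over the 8 libraries. Leaving out 1 library gave 38.9% to 58.2% in free windows, 68.6% to 73.4% with a same-strand gene and 49.1% to 60.6% with opposite-strand genes only.

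ITN chimeric loci had 7 higher with the 4 libraries alone, and 8 to 12 when 1 library was left out. ITN extended loci had 1 higher by DESeq2 and with the 4 libraries alone, 1 lower without a filter, and 1 to 2 higher and 0 to 1 lower when 1 library was left out, when FPA loci had 0 to 1 each way. The m6A pathway had 1 lower with library-size scaling and without a filter, and 0 to 1 when 1 library was left out. Polyadenylation factors had 0 lower by DESeq2 and with the 4 libraries alone (0 to 1 when 1 library was left out). With the 4 libraries alone, sugar and nitrogen genes had 0 lower (1 by DESeq2, 0 to 2 when 1 library was left out), seed genes 0 higher (0 to 1) and root markers 0 lower (0 to 2). Seed genes had 1 lower without a filter, and stress genes 0 to 1 each way when 1 library was left out. The causes were not tested. None of the named calls changed direction under the settings run, and 31 of 56 were kept in all settings that tested them. Windows under about 20 counts limit what can be shown: the lone library left in a group is assumed to vary like the other groups.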

Other observations

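The called windows with the most reads lay behind 2 genes for the small subunit of Rubisco, the enzyme of carbon fixation, and were singled out after their values were seen. The window of *RBCS2B* (AT5G38420) held 101780 and 93841 reads in *fip37L* and 41434 and 33847 in *cpsf30-3*, against 38866 and 31703 in WT, a log2 change of 1.35 ± 0.12 (SE, edgeR adjusted p = 0.000737). The window of *RBCS1B* (AT5G38430) held 74705 and 89538 reads in *fip37L* and 24794 and 24483 in *cpsf30-3*, with 29657 and 25363 in WT, at 1.72 ± 0.24 (adjusted p = 0.00260). Both windows are free of other annotated genes, *cpsf30-3* lay near WT in each, and both calls were kept in all 9 alternative fits. The genes are near-identical tandem copies, so how reads were divided between them is uncertain. Windows facing light-harvesting genes, another abundant class of leaf mRNA, gave 0 calls of 11, beside the 6.73% called over all tested windows.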
